A study of Mus musculus with 12 samples.

Results

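The 10 genes described here encode heat shock chaperones, the proteins that bind unfolded chains and help them fold. They were taken by name from the 22293 gene symbols measured in the series, and each was found in all 12 libraries. Hspa2, Hspa1l and Hspa4l are the members known for expression in germ cells of the testis. The general members are the stress-inducible HSP70 genes Hspa1a and Hspa1b, the constitutive HSP70 gene Hspa8, the endoplasmic reticulum HSP70 gene Hspa5, the HSP110 gene Hsph1, and the cytosolic HSP90 genes Hsp90aa1 and Hsp90ab1. The study used RNA-seq to ask how loss of Zmym3, an X-linked gene for a zinc finger protein found in complexes with histone demethylase LSD1, changes expression in male mouse germ cells at 3 states. All mice were males labelled CBA/C57. The cultured groups were Zmym3 knockout (KO) and wild-type (WT) spermatogonial stem cells (SSCs) grown on laminin, and KO and WT c-KIT+ pre-meiotic cells, induced from those SSCs with 100 nM retinoic acid (RA) and taken 36 h later, with 2 libraries in each group. The sorted groups were KO and WT spermatocytes from mice of 5 and 7 months, with 1 library for each genotype at each age.

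The KO allele came from injecting Cas9 mRNA and guide RNAs into zygotes, with founders chosen for a frameshift that ends translation early. The labels give 2 months as the age behind the cultured cells, whereas the study's methods describe SSC lines from pups or adults. No source says whether the 2 libraries of a cultured group came from separate cultures or lines, so p-values there measure only the spread between libraries, which may be technical. Spermatocytes were sorted from digested testes as the larger of the tetraploid cells, at about 80% purity by the labels, so that spermatocytes and SSCs differ in cell isolation as well as in stage.

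HSP70 proteins clamp onto short hydrophobic stretches and release them in a cycle of ATP hydrolysis, with J proteins loading the client and nucleotide exchange factors, among them the HSP110 proteins, ejecting ADP. HSP90 dimers act later, on nearly folded clients such as kinases and steroid receptors. In heat or other stress, heat shock factors bind heat shock elements in the promoters of inducible members. Male germ cells use their own isoforms, of which HSPA2 is the best known: in mice it is needed for taking apart the synaptonemal complex at the end of meiotic prophase, and males without it do not make sperm. HSPA4L is an HSP110 of the testis whose loss in mice lowers fertility.

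The promoters of the members on which the results turn are shown first, to set germ cell genes beside inducible ones. Windows of 250 bases before the transcription start were available from RefSeq (GRCm38.p6) for 7 of the 10 members, all but Hspa8, Hsp90aa1 and Hsp90ab1. In the sequences, 5′ to 3′ on the gene's own strand, capitals mark the heat shock element cores GAANNTTC or TTCNNGAA, the core TGACGT of cyclic AMP response elements, and CCAAT on either strand. The windows are chr12:76404120-76404369 (plus strand) for Hspa2, chr17:34972453-34972702 (plus) for Hspa1l, chr17:34972157-34972406 (minus) for Hspa1a, chr17:34959239-34959488 (minus) for Hspa1b and chr5:149636337-149636586 (minus) for the first start of Hsph1.
Hspa2: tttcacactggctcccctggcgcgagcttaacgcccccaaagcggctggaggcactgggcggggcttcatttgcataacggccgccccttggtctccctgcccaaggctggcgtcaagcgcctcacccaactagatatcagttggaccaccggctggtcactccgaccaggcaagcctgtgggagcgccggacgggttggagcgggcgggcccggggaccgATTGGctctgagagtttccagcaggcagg
Hspa1l: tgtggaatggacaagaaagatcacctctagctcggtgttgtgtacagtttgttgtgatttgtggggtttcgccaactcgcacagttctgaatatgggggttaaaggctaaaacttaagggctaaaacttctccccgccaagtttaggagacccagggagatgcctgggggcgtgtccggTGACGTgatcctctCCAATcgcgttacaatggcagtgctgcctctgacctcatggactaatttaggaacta
Hspa1a: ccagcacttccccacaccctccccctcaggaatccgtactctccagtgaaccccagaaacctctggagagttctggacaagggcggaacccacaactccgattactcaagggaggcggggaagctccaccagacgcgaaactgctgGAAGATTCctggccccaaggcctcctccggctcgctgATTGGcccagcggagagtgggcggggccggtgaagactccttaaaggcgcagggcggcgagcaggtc
Hspa1b: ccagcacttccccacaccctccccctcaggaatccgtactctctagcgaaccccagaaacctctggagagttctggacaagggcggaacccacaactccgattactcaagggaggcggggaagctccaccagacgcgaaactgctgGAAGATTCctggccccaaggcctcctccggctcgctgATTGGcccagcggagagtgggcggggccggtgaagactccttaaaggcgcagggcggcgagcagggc
Hsph1: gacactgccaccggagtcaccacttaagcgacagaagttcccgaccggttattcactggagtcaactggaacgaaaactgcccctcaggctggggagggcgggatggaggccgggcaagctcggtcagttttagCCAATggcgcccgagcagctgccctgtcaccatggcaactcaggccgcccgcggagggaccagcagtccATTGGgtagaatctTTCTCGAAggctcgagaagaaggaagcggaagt

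A heat shock element core stood 104 to 97 bases before the start in both Hspa1a and Hspa1b (GAAGATTC) and 33 to 26 bases before the start in Hsph1 (TTCTCGAA). None was found in the windows of Hspa2, Hspa1l, Hspa4l and Hspa5. Of 32851 mouse promoter windows of this length, 6.69% held GAANNTTC, 7.17% held TTCNNGAA and 12.8% held either. Hspa1l held TGACGT 71 to 66 bases before its start, as Hspa5 did at 157 to 152, a stretch present in 6.47% of windows on either strand. In Hspa1l it was followed by CCAAT at 57 to 53, and CCAAT occurred in 33.8% of windows. Hspa2 held CCAAT on the minus strand 29 to 25 bases before its start. The general members held CCAAT as well. It lay at 67 to 63 on the minus strand in Hspa1a and Hspa1b. Hsph1 (first start) held it at 116 to 112 on the plus strand and 47 to 43 on the minus strand, and Hspa5 held it at several places. CCAAT was thus not particular to the germ cell members. Hspa5 held the endoplasmic reticulum stress response element (CCAAT and CCACG with 9 bases between, here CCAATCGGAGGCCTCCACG) at 65 to 47 bases before its start, which 0.113% of windows share. The windows of Hspa1a and Hspa1b were identical at 247 of 250 positions and differed by C207T, T204C and T2G (the Hspa1a base, its position counted in bases before the start, and the Hspa1b base). Hspa1a and Hspa1l lie head to head, with 546 bases between their starts, so that the printed window of one runs toward that of the other. These matches describe letters and were not tested for binding.

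In the authors' mm9 coordinates, Hspa1b (chr17:35093374-35096183), Hspa1a (chr17:35106304-35109101) and Hspa1l (chr17:35109648-35116173) form one cluster. Hspa1a and Hspa1b are near-identical copies, and how the authors' counting shared reads between them is not given in the sources used here, so their separate values are uncertain and their sum is also given. Hspa8 (chr9:40609356-40613282) overlaps a short listed gene, LOC624853 at its end. The other members lie apart, with Hspa2 at chr12:77505163-77507923 and Hspa4l at chr3:40549535-40594287.

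All values are the authors' FPKM (fragments per kilobase of transcript, scaled to mapped fragments), which allow levels to be set side by side between genes. No source used here says whether cultured and spermatocyte libraries were normalised together, so a difference between them may also hold a difference in scale. The depth of each library is not given, and the ratios of low values between libraries put the 12 libraries at 0.908 to 1.22 times the depth of the WT 5-month library. Zmym3 itself was at 9.19 and 9.76 FPKM in KO SSCs, against 40.2 and 37.4 FPKM in WT SSCs, and at 10.0 and 11.3 FPKM in KO c-KIT+ cells, against 39.9 and 39.7 FPKM in WT c-KIT+ cells, while it was at 0.146 and 0.340 FPKM in KO spermatocytes and 0.412 and 0.460 FPKM in WT spermatocytes. Most markers followed the labelled states. All 7 SSC genes (Gfra1, Ret, Zbtb16 and others) were lower in c-KIT+ cells than in SSCs, although one of them, Id4, was highest in spermatocytes. Of 4 genes of differentiating spermatogonia 3 were higher with RA and 1, Dmrtb1, was lower, in each genotype. All 9 spermatocyte genes (Sycp1, Sycp3, Piwil1 and others) were higher in spermatocytes, with summed levels of 3721 to 4092 FPKM there and 107 to 203 FPKM in cultured cells. Of these 9, 5 passed the filter among cultured libraries, and the direction of the others was set by the filter. The same limit holds in culture for Nanos2 of the SSC genes and Kit of the differentiating genes. All 12 spermatid genes, such as Prm1 and Tnp1, were also present at 1 FPKM or more in every spermatocyte library. In bulk RNA, fewer cells of a type and less RNA in each cell cannot be told apart.

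The largest differences among the members followed cell state. Hspa2 was at 465 and 611 FPKM in KO spermatocytes (5 and 7 months), against 8.01 and 7.70 FPKM in KO SSCs, and at 453 and 590 FPKM in WT spermatocytes, against 8.005 and 7.39 FPKM in WT SSCs. Every spermatocyte library was far above every cultured library, and Hspa2 ranked between 26 and 54 among all genes there. Its mean was 68.5 times higher in KO spermatocytes than in KO SSCs and 67.8 times higher in WT spermatocytes than in WT SSCs. On the log2(FPKM + 1) scale used for all tests here, which understates the change of low genes, the differences were 5.92 ± 0.04 for KO (SE, limma adjusted p = 2.20e-12) and 5.90 ± 0.04 for WT (adjusted p = 2.17e-12).

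**Figure D1:**
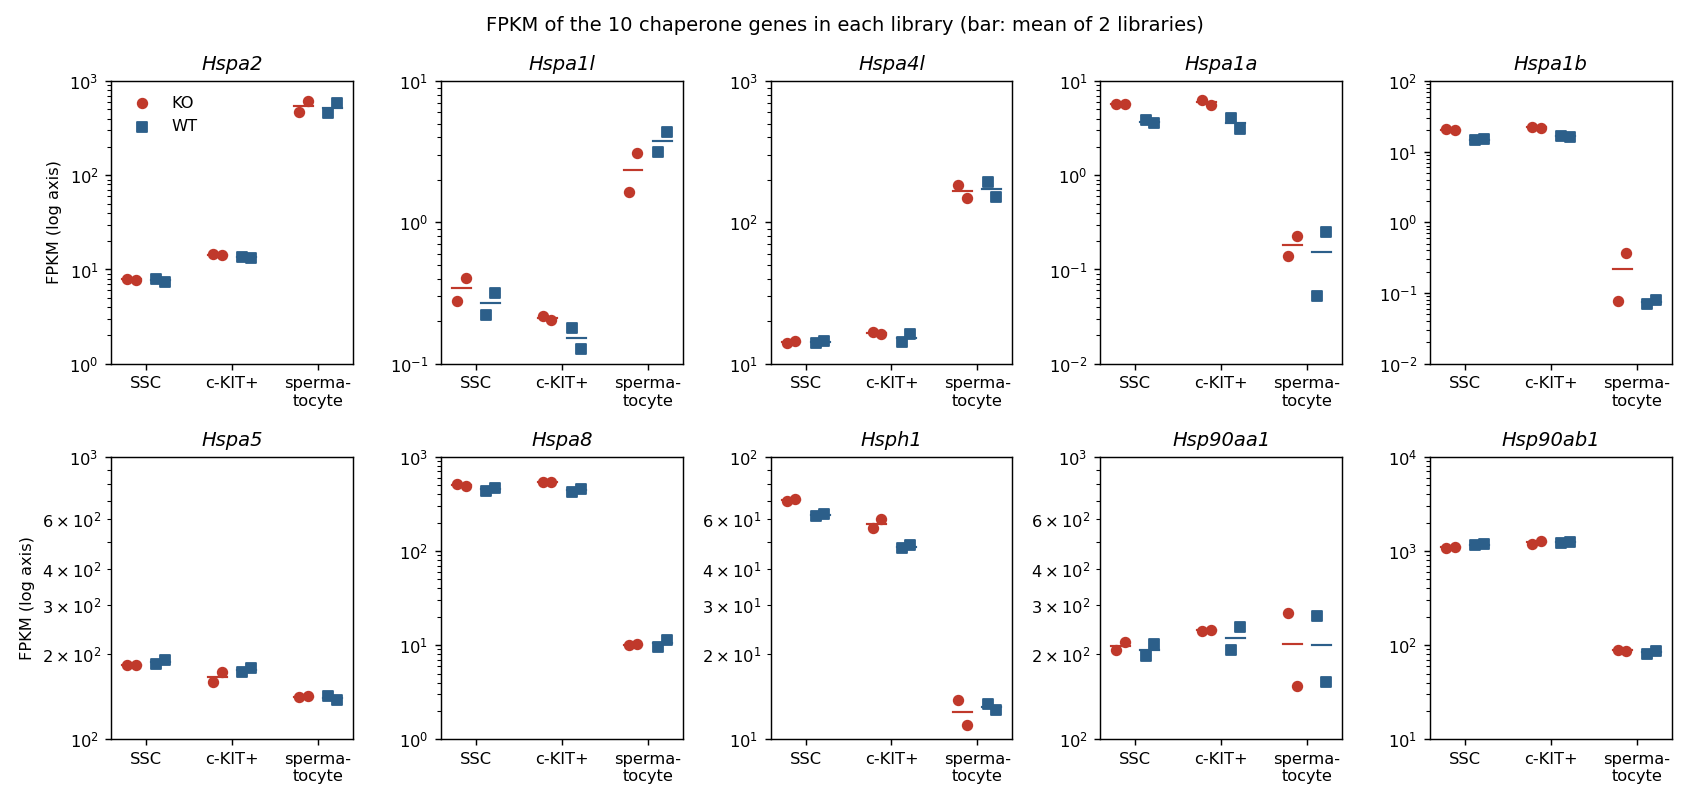
FPKM of the 10 chaperone genes in each of the 12 libraries (log axis), 1 panel per gene, with points for single libraries, bars for the mean of 2 libraries and KO left of WT within each cell state. Hspa2 and Hspa4l sit near 453 to 611 and 149 to 192 FPKM in spermatocytes, whereas Hspa8 and Hsp90ab1 sit at 9.55 to 11.5 and 81.3 to 89.2 FPKM there and at 427 to 543 and 1084 to 1266 FPKM in cultured cells.

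Hspa4l, the testis HSP110, showed the same direction from a higher base. It was at 184 and 149 FPKM in KO spermatocytes, against 13.9 and 14.6 FPKM in KO SSCs, and at 192 and 151 FPKM in WT spermatocytes, against 14.0 and 14.5 FPKM in WT SSCs. The means differed 11.7-fold for KO and 12.01-fold for WT, or by 3.45 ± 0.06 and 3.49 ± 0.06 on the log2 scale (adjusted p = 6.19e-11 and 5.52e-11). Hspa1l, whose protein in mice is a testis HSP70 of spermatids, remained the least abundant of the germ cell members. Its level was 1.65 and 3.08 FPKM in KO spermatocytes, against 0.276 and 0.407 FPKM in KO SSCs, and 3.13 and 4.36 FPKM in WT spermatocytes, against 0.221 and 0.316 FPKM in WT SSCs. That was 1.30 ± 0.08 higher on the log2 scale for KO and 1.89 ± 0.08 higher for WT (adjusted p = 2.84e-07 and 1.74e-08). Hspa1l passed the filter of 1 FPKM in 2 libraries through spermatocytes alone. Its direction was thus set by the filter, and these p-values add no support for it. The spermatid genes of the marker list, at 245 to 598 FPKM in sum in spermatocytes and 5.31 to 12.6 FPKM in cultured cells, moved with Hspa1l, and their part in its level was not tested.

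The general cytosolic HSP70 genes were lower in spermatocytes. Hspa8, which encodes the constitutive HSC70, was at 9.94 and 10.2 FPKM in KO spermatocytes, against 510 and 489 FPKM in KO SSCs, and at 9.55 and 11.5 FPKM in WT spermatocytes, against 437 and 462 FPKM in WT SSCs. The SSC mean exceeded the spermatocyte mean 49.7-fold for KO and 42.8-fold for WT (log2 differences −5.50 ± 0.06 and −5.30 ± 0.06, adjusted p = 6.87e-12 and 6.88e-12). Hspa1b was at 0.0778 and 0.364 FPKM in KO spermatocytes, against 20.9 and 20.2 FPKM in KO SSCs, and at 0.0697 and 0.0800 FPKM in WT spermatocytes, against 14.7 and 15.0 FPKM in WT SSCs. Hspa1a was at 0.139 and 0.225 FPKM in KO spermatocytes, against 5.69 and 5.65 FPKM in KO SSCs, and at 0.0528 and 0.253 FPKM in WT spermatocytes, against 3.86 and 3.55 FPKM in WT SSCs. Both genes were thus near the floor of detection in all spermatocytes, where the authors' own lower confidence limit for Hspa1a in the WT 5-month library was 0, and no linear fold is given. Their summed level fell by 4.29 ± 0.06 on the log2 scale in KO spermatocytes relative to KO SSCs and fell by 3.998 ± 0.06 in WT spermatocytes relative to WT SSCs (adjusted p = 1.74e-11 and 2.26e-11). Hspa1a and Hspa1b passed the filter of 1 FPKM in 2 libraries through cultured cells alone, so these p-values add no support for the direction. Genes that cell handling can induce moved in the same direction: 9 immediate-early genes summed to 10.4 and 25.03 FPKM in KO spermatocytes, against 172 and 165 FPKM in KO SSCs, and to 6.02 and 9.42 FPKM in WT spermatocytes, against 169 and 146 FPKM in WT SSCs, with all 7 tested genes called lower in each genotype. So were all 7 tested fibroblast and peritubular genes. Among the spermatocyte libraries, 5 of the immediate-early genes and 1 of the fibroblast and peritubular genes passed the filter. The direction of the others was set by the filter, so their calls add no support for it. The part of either list in the HSP70 values was not tested.

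Of the co-chaperone and HSP90 members, Hsph1 was at 13.8 and 11.3 FPKM in KO spermatocytes, against 69.4 and 70.9 FPKM in KO SSCs, and at 13.3 and 12.7 FPKM in WT spermatocytes, against 61.5 and 62.7 FPKM in WT SSCs. The log2 differences were −2.40 ± 0.06 for KO and −2.17 ± 0.06 for WT (adjusted p = 3.68e-10 and 6.65e-10). Hsp90ab1, the constitutive HSP90 and among the 4 highest genes of every cultured library, was at 89.2 and 87.1 FPKM in KO spermatocytes, against 1084 and 1112 FPKM in KO SSCs. The WT values were 81.3 and 87.2 FPKM in spermatocytes, against 1156 and 1184 FPKM in SSCs, so that the groups were again far apart (−3.62 ± 0.06 for KO and −3.78 ± 0.06 for WT, adjusted p = 2.98e-11 and 2.27e-11). Hsp90aa1, the inducible HSP90 that is also abundant in germ cells, did not follow its paralog. It was at 279.7 and 155 FPKM in KO spermatocytes of 5 and 7 months, against 206 and 220 FPKM in KO SSCs, and at 273 and 159.8 FPKM in WT spermatocytes, against 197 and 217 FPKM in WT SSCs. The SSC values lay between those of the younger and the older mice, and with 1 library per genotype at each age, age and library cannot be told apart.

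Hsp90aa1 and Hspa5 were the members whose direction depended on how libraries were scaled. In the deposited FPKM, Hsp90aa1 differed by −0.03 for KO (95% interval −0.24 to 0.17, adjusted p = 0.719) and 0.01 for WT (−0.19 to 0.22, adjusted p = 0.884). Hspa5, the lumenal chaperone BiP, was at 142 and 142 FPKM in KO spermatocytes, against 183 and 183 FPKM in KO SSCs, and at 142 and 138 FPKM in WT spermatocytes, against 184 and 192 FPKM in WT SSCs (−0.37 ± 0.05 and −0.42 ± 0.05, adjusted p = 0.000103 and 3.72e-05, against 0.0235 and 0.0156 in fits of these groups alone). The median of all 13247 tested genes was itself −0.87 for KO and −0.89 for WT in the deposited FPKM. Scaling by the median ratio moved that median to −0.02 and −0.0025, and Hspa5 then stood at 0.72 for KO and 0.69 for WT and Hsp90aa1 at 1.06 and 1.13, all called higher. Quantile normalization moved the median to −0.12 and −0.15 and put Hsp90aa1 at −0.54 for KO and −0.50 for WT, both called lower. The other 8 members kept their direction and call under each scaling tried.

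**Figure D2:**
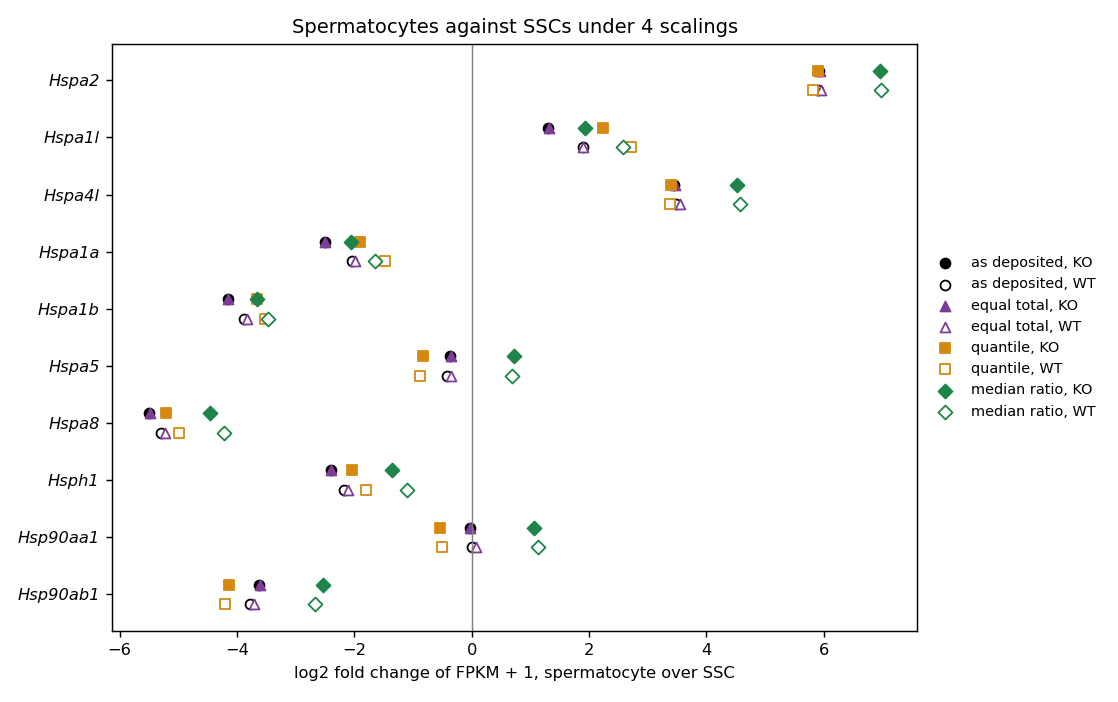
Log2 difference between spermatocytes and SSCs for each chaperone gene under the scalings tried, with filled symbols for KO and open symbols for WT. Hspa2, Hspa4l and Hspa1l stay above 0 and Hspa8, Hsp90ab1, Hspa1b, Hspa1a and Hsph1 below 0 under each, whereas under median-ratio scaling Hspa5 moves above 0 in both genotypes and Hsp90aa1 in KO, and under quantile normalization Hsp90aa1 moves below 0 in WT.

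In all, 3 members were called higher (Hspa2, Hspa1l and Hspa4l) and 6 lower (all others but Hsp90aa1, with Hspa5 turning higher under median-ratio scaling) out of 10 tested in each genotype, at an adjusted p under 0.01. Hspa1l, Hspa1a and Hspa1b passed the filter only through the state where they were higher, so the direction of their calls was set by the filter. Calls were the rule in this comparison: among all genes tested 28.3% were called higher and 62.8% lower in KO spermatocytes against KO SSCs, and 28.8% higher and 63% lower in WT spermatocytes against WT SSCs. The count of members is therefore not particular to them, and the sizes of the differences carry the description.

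Ratios of related members within a library do not change when all its values are multiplied by one factor. The germ cell HSP70 to constitutive HSP70 ratio (Hspa2 over Hspa8) was 46.8 to 60.0 in the 4 spermatocyte libraries and 0.0157 to 0.0315 in the 8 cultured libraries. The germ cell HSP110 to its ubiquitous paralog (Hspa4l over Hspa4) was 2.22 to 2.43 in spermatocytes and 0.0795 to 0.106 in cultured cells, and Hsp90aa1 over Hsp90ab1 was 1.78 to 3.36 in spermatocytes and 0.170 to 0.201 in cultured cells. In each ratio the states did not overlap. The share of other gene pairs or sums without overlap was not counted, and calls were the rule between these states. Among the 5 cytosolic HSP70 genes, Hspa2 made up 97.3% to 97.8% of the summed FPKM in spermatocytes and 1.47% to 2.91% in cultured cells, while Hspa8 made up 1.63% to 2.08% in spermatocytes and 92.5% to 94.6% in cultured cells. The sum itself was 466 to 625 FPKM in spermatocytes and 462 to 587 FPKM in cultured cells, so that the makeup of the cytosolic HSP70 RNA differed between states. The sum depends on scaling, whereas the makeup does not when a library is multiplied by one factor. With median-ratio scaling, tried after the values were seen, the sum was 796 to 1027 in spermatocytes and 339.7 to 444 in cultured cells, without overlap. The states overlapped with quantile normalization, at 362 to 572 in spermatocytes and 500 to 688 in cultured cells. They also did with an equal total, at 460 to 645 in spermatocytes and 416 to 600 in cultured cells. The HSP90 sum did not overlap, at 242 to 369 FPKM in spermatocytes and 1290 to 1510 FPKM in cultured cells, and was also lower in every spermatocyte library with equal-total, quantile and median-ratio scaling.

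**Figure D3:**
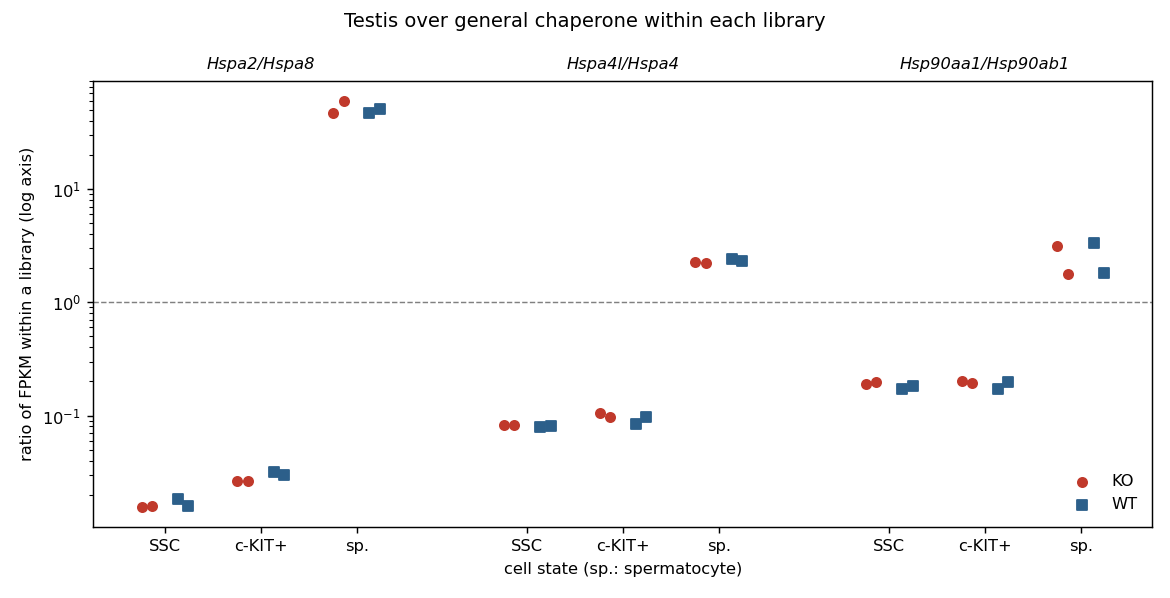
Ratios of related chaperones (FPKM over FPKM, log axis) in each of the 12 libraries, with KO left of WT and a dashed line at a ratio of 1. Hspa2 over Hspa8 and Hspa4l over Hspa4 set a germ cell gene over a general one, whereas Hsp90aa1 over Hsp90ab1 sets one general member over another. Each ratio is above 1 in the 4 spermatocyte libraries and below 1 in the 8 cultured ones, for example Hspa2 over Hspa8, at 46.8 to 60.0 against 0.0157 to 0.0315.

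The second comparison concerned RA-driven differentiation in culture. Hspa2 rose in both genotypes and Hsph1 fell in both. Hspa2 was at 14.4 and 14.3 FPKM in KO c-KIT+ cells, against 8.01 and 7.70 FPKM in KO SSCs, and at 13.4 and 13.4 FPKM in WT c-KIT+ cells, against 8.005 and 7.39 FPKM in WT SSCs. The means differed 1.83-fold for KO and 1.74-fold for WT (log2 differences 0.80 ± 0.06 and 0.73 ± 0.06, adjusted p = 1.07e-05 and 1.70e-05), which is small beside the spermatocyte level. Hsph1 was at 55.8 and 60.1 FPKM in KO c-KIT+ cells, against 69.4 and 70.9 FPKM in KO SSCs, and at 47.6 and 48.6 FPKM in WT c-KIT+ cells, against 61.5 and 62.7 FPKM in WT SSCs (−0.27 ± 0.05 and −0.36 ± 0.05, adjusted p = 0.00138 and 0.000293). In none of these sets did c-KIT+ and SSC libraries overlap, but the share of all genes without overlap was not counted here. Differences were common with RA: 7281 of 11981 genes for KO and 7396 for WT had an unadjusted limma p under 0.05.

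Of the germ cell members, Hspa2 alone was called at this step. Hspa4l was at 16.8 and 16.1 FPKM in KO c-KIT+ cells, against 13.9 and 14.6 FPKM in KO SSCs, and at 14.2 and 16.3 FPKM in WT c-KIT+ cells, against 14.0 and 14.5 FPKM in WT SSCs (log2 differences 0.20 and 0.09, adjusted p = 0.0336 and 0.2998). Hspa1l was at 0.128 to 0.407 FPKM in all 8 cultured libraries and did not pass the filter of 1 FPKM in 2 libraries. Of the 9 members tested, 1 was called higher and 1 lower in each genotype, where among all genes 24.6% were called higher and 16% lower in KO c-KIT+ cells, and 24.9% higher and 15.9% lower in WT c-KIT+ cells. The remaining general members held their levels near those of SSCs, with Hspa5 at 159 to 180 FPKM, Hspa8 at 427 to 543 FPKM, Hsp90aa1 at 206 to 250.2 FPKM and Hsp90ab1 at 1199 to 1266 FPKM over the 4 c-KIT+ libraries. Median log2 differences were 0.12 over the members and 0.07 over all genes for KO, and 0.08 over the members and 0.08 over all genes for WT. Without KO SSC replicate 2, Hsph1 was no longer called in KO (adjusted p = 0.0128).

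**Figure D4:**
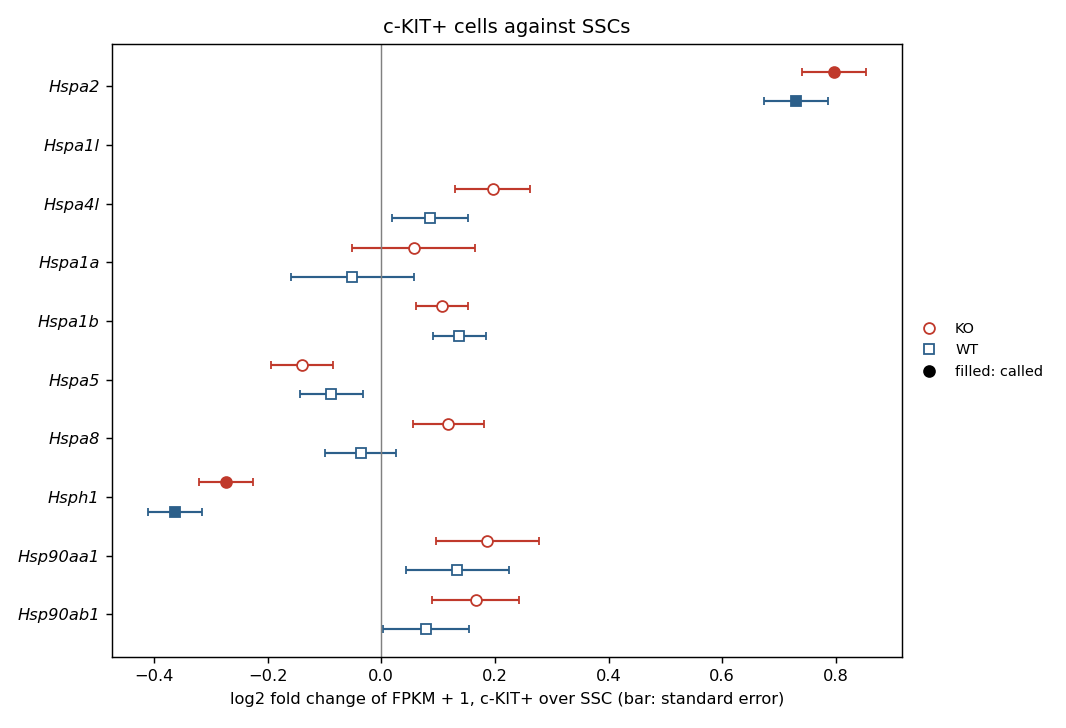
Log2 difference between c-KIT+ cells and SSCs for the 9 chaperone genes tested, for KO and WT, with bars for the standard error and filled points for called genes. Hspa2 stands at 0.80 for KO and 0.73 for WT and Hsph1 at −0.27 and −0.36, and the remaining genes lie between −0.14 and 0.20.

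The third comparison was between genotypes in culture. The inducible HSP70 gene Hspa1b was the only member called, and it rose in KO cells of both states. It was at 20.9 and 20.2 FPKM in KO SSCs, against 14.7 and 15.0 FPKM in WT SSCs, and at 22.4 and 22.0 FPKM in KO c-KIT+ cells, against 16.7 and 16.1 FPKM in WT c-KIT+ cells. The KO libraries lay above the WT libraries without overlap, 1.39-fold in SSCs and 1.35-fold in c-KIT+ cells by means (log2 differences 0.44 ± 0.05 and 0.41 ± 0.05, adjusted p = 0.000782 and 0.00153). Its near-copy Hspa1a was at 5.69 and 5.65 FPKM in KO SSCs, against 3.86 and 3.55 FPKM in WT SSCs, and at 6.33 and 5.57 FPKM in KO c-KIT+ cells, against 4.08 and 3.06 FPKM in WT c-KIT+ cells. These groups did not overlap either, but the wider spread left the differences of 0.50 ± 0.11 and 0.61 ± 0.11 short of the threshold of 0.01 (adjusted p = 0.0196 and 0.0126). Summed over both copies, a choice made after the data were seen, the differences were 0.48 ± 0.05 in SSCs and 0.48 ± 0.05 in c-KIT+ cells (adjusted p = 0.000922 and 0.00131).

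Other general members stood in the same direction with smaller differences that were not called. Hspa8 was at 510 and 489 FPKM in KO SSCs, against 437 and 462 FPKM in WT SSCs (log2 difference 0.15, adjusted p = 0.154), and at 543 and 541 FPKM in KO c-KIT+ cells, against 427 and 450 FPKM in WT c-KIT+ cells (0.31, adjusted p = 0.0230). Hsph1 differed by 0.17 in SSCs and 0.26 in c-KIT+ cells (adjusted p = 0.0466 and 0.0135). In both states, Hspa1a, Hspa1b, Hsph1 and Hspa8 had both KO libraries above both WT libraries. The overlapping entry LOC624853 was listed at 4.44 and 241 FPKM in KO SSCs and at 9.86 and 244 FPKM in KO c-KIT+ cells, against 1.06 FPKM or less in all other libraries, and what this does to the value of Hspa8 was not tested.

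Neither germ cell member tested was called in culture. Hspa2 differed between KO and WT by 0.03 in SSCs (95% interval −0.10 to 0.15) and by 0.09 in c-KIT+ cells (−0.04 to 0.22), and Hspa4l by −0.0033 in SSCs (−0.16 to 0.15) and 0.11 in c-KIT+ cells (−0.04 to 0.26). Hspa5, Hsp90aa1 and Hsp90ab1 lay between −0.09 and 0.10. The upper bounds for Hspa2 and Hspa4l lie below the difference of 0.41 seen for Hspa1b in c-KIT+ cells.

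**Figure D5:**
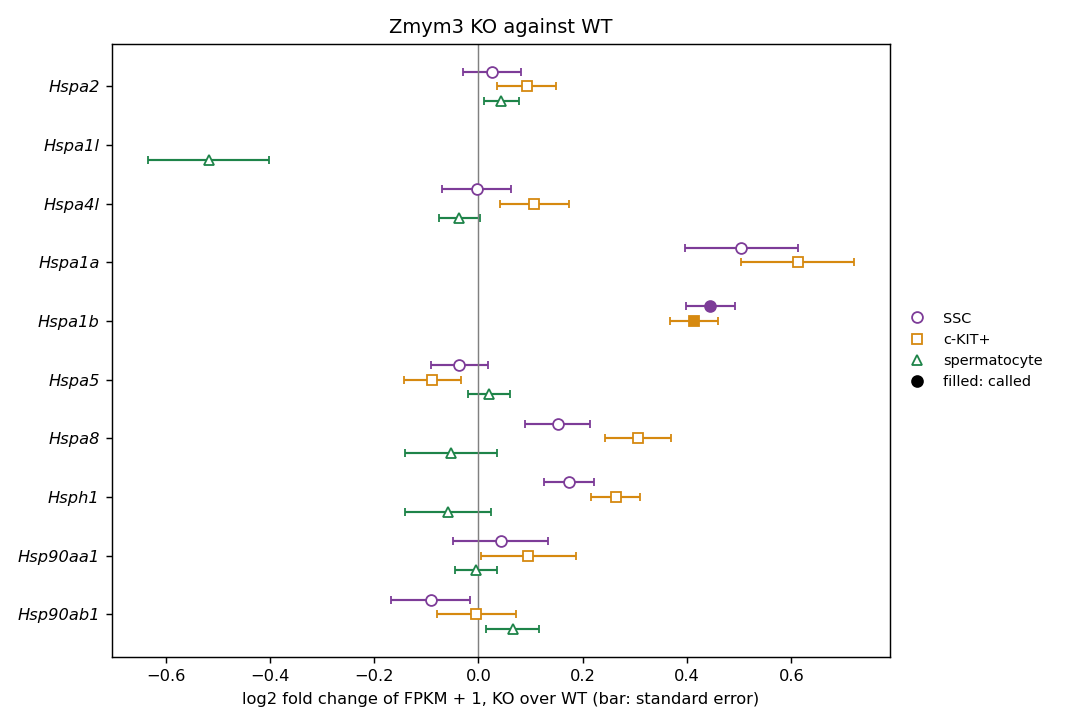
Log2 difference between KO and WT for each chaperone gene in SSCs, c-KIT+ cells and spermatocytes, with bars for the standard error and filled points for called genes. Hspa1b is filled, at 0.44 for SSCs and 0.41 for c-KIT+ cells, while Hspa1l, tested in spermatocytes alone, lies at −0.52 with an open point.

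Of 9 members tested, 1 was called higher and 0 lower in each state, where 2.11% of all genes were called higher and 2.79% lower in KO SSCs, and 1.11% higher and 1.59% lower in KO c-KIT+ cells. Both KO libraries lay above both WT libraries for 4 of the 9 tested members in SSCs (30.1% of all genes did) and below them for 2 (27.4%). In c-KIT+ cells they lay above for 5 of the 9 (26.8% of all genes) and below for 1 (25.5%), and with 9 genes these counts were not tested against the backgrounds. The call of Hspa1b in c-KIT+ cells was lost without WT c-KIT+ replicate 1, WT c-KIT+ replicate 2 or KO c-KIT+ replicate 1 (adjusted p = 0.0145, 0.0215 and 0.0110), and that in SSCs without KO SSC replicate 1 (adjusted p = 0.0116), with the difference at 0.39 to 0.47 throughout. Markers of other cells moved with genotype too. The 9 fibroblast and peritubular genes summed to 51.0 to 54.1 FPKM in KO cultures, against 75.2 to 78.0 FPKM in WT cultures, with 5 of 7 tested genes lower in KO SSCs and 4 of 7 lower in KO c-KIT+ cells. The 9 immediate-early genes, which cell handling can induce, summed to 172 and 165 FPKM in KO SSCs, against 169 and 146 FPKM in WT SSCs, and to 148 and 165 FPKM in KO c-KIT+ cells, against 135 and 123 FPKM in WT c-KIT+ cells, where the sums did not overlap. All 7 tested genes of that list were above 0 in both states, with 1 called higher for c-KIT+ cells and 0 for SSCs. The part of either list in the Hspa1b difference was not tested.

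Whether the response to RA differed by genotype was tested as an interaction. It was called for none of the 9 members at limma's adjusted p under 0.01, and the share called among all genes was 0%, with 865 of 11981 genes at an unadjusted p under 0.05 and 0 members among them. The interaction estimates ran between −0.05 for Hspa5 and 0.15 for Hspa8.

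In spermatocytes, no member was called between genotypes at limma's adjusted p under 0.05, and 1.67% of all 9350 genes were. Of the 8 members tested, 1 had an unadjusted p under 0.05. This was Hspa1l, at 1.65 and 3.08 FPKM in KO spermatocytes (5 and 7 months), against 3.13 and 4.36 FPKM in WT spermatocytes. The KO library was lower at each age, but the KO value at 7 months lay close to the WT value at 5 months. Its log2 difference was −0.52 (95% interval −0.81 to −0.22, adjusted p = 0.127). In a fit of all 12 libraries the same difference was called (adjusted p = 0.00583). That fit takes its spread from the cultured libraries too, where Hspa1l was below the filter at 0.128 to 0.407 FPKM. Its call is therefore not taken as support. Spermatid genes moved in the same direction, with all 12 below 0 and 9 called lower, and summed to 245 and 296 FPKM in KO spermatocytes, against 598 and 576 FPKM in WT spermatocytes. Sertoli cell genes summed to 50.2 and 133 FPKM in KO spermatocytes, against 19.5 and 28.7 FPKM in WT spermatocytes. The immediate-early genes summed to 10.4 and 25.03 FPKM in KO spermatocytes, against 6.02 and 9.42 FPKM in WT spermatocytes, with 5 of 5 tested genes above 0 and 1 called higher. The part of any of these lists in the Hspa1l value was not tested.

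The other members were measured more tightly. Hspa2 was at 465 and 611 FPKM in KO spermatocytes, against 453 and 590 FPKM in WT spermatocytes, a log2 difference of 0.04 (95% interval −0.04 to 0.13). Hspa4l differed by −0.04 (−0.14 to 0.06). For both genes the values at 5 and 7 months were further apart than those of the genotypes: Hspa2 was higher at 7 months and Hspa4l lower, in KO and WT alike. Hspa1a and Hspa1b did not pass the filter in spermatocytes. The difference between the KO effect in spermatocytes and that in cultured cells was also tested, after the values had been seen. Against c-KIT+ cells it was −0.36 ± 0.09 for Hspa8 and −0.32 ± 0.08 for Hsph1 (adjusted p = 0.0386 and 0.0498). Against SSCs it was −0.20 ± 0.09 for Hspa8 and −0.23 ± 0.08 for Hsph1, and neither passed (adjusted p = 0.178 and 0.117). For Hspa1l the difference was −0.59 ± 0.11 against c-KIT+ cells and −0.60 ± 0.11 against SSCs (adjusted p = 0.0185 and 0.0144). Its cultured levels were below the filter, which it passed through spermatocytes alone, so these values are not taken as support. Of all genes, 11% differed against SSCs and 8.25% against c-KIT+ cells at an adjusted p under 0.05.

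The partners of the members were described from lists of chaperone genes. Between spermatocytes and SSCs most lists held both higher and lower genes, beside 28.3% of all genes called higher and 62.8% lower in KO, and 28.8% higher and 63% lower in WT. The exceptions were the germ cell chaperones of the endoplasmic reticulum, with 2 of 3 higher and 0 lower, and the other HSP90 genes, with 1 of 2 higher and 0 lower, in each genotype. The cultured libraries alone tested fewer genes: 10 chaperonins, 39 J proteins, 4 heat shock factors and 2 of these germ cell chaperones. Genes added here needed the spermatocyte libraries to pass the filter, so their calls add no support for a direction. Conversely, the spermatocyte libraries alone tested 18 HSP90 partners, and the same limit holds for genes that needed the cultured libraries. Among J proteins, which load clients onto HSP70, 19 of 43 were higher and 18 lower in KO, and 21 higher and 16 lower in WT. Dnajb13, known from sperm flagella, differed by 5.32 for KO and 5.61 for WT. Small heat shock proteins included Hspb9, a testis gene, at 305 and 333 FPKM in KO spermatocytes, against 1.00 and 1.49 FPKM in KO SSCs, and of 7 tested genes of that list 4 were higher and 2 lower in KO, and 4 higher and 3 lower in WT. Of the chaperonins, which fold proteins in a closed ring, 4 of 11 were higher and 6 lower in each genotype. The testis subunit Cct6b differed by 6.50 for KO and 6.65 for WT, whereas the mitochondrial Hspd1 differed by −4.95 and −5.01 and its partner Hspe1 by −4.81 and −5.03. Of 5 heat shock factors tested, 2 were higher and 3 lower in each genotype, with the germ cell factor Hsf5 at 4.25 for KO and 4.49 for WT and Hsf2 at −2.69 and −2.38. Calmegin (Clgn), the germ cell chaperone of the endoplasmic reticulum, differed by 6.61 for KO and 5.77 for WT. Among 20 HSP90 partners 5 were higher and 13 lower, and among 11 nucleotide exchange factors and other HSP70 partners 4 were higher, with Bag5 at 3.11 for KO and 3.03 for WT, and 5 lower, in both genotypes. Of 7 other HSP70 and HSP110 genes, 1 was higher in each genotype, and 5 were lower in KO and 6 in WT, among them Hspa14 (−2.18 and −2.08) and Hspa4 (−1.20 and −1.29).

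Of 17 genes of endoplasmic reticulum stress, 6 rose and 4 fell in KO, whereas 5 were higher and 6 lower in WT. These splits depended on scaling, an alternative added after the values were seen. With median-ratio scaling, 32 J proteins were higher and 7 lower in KO and 34 higher and 5 lower in WT, and 7 chaperonins were higher and 3 lower in each genotype. The endoplasmic reticulum stress genes then numbered 14 higher and 3 lower in each, and Hspa4, at −0.11, was no longer called in KO. Under this scaling the median of all genes moved too, from −0.87 to −0.02 in KO and from −0.89 to −0.0025 in WT. The shares of all genes called under it are not given here, so these counts are not read as particular to the lists. Dnajb13, Hspb9, Cct6b, Hspd1, Hspe1, Hsf5, Hsf2, Clgn, Bag5 and Hspa14 kept their direction and call in both genotypes under equal-total, quantile and median-ratio scaling. For any of them that passed the filter through 1 state alone, the direction was set by the filter.

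With RA, the chaperonins stood together below 0. In KO c-KIT+ cells 8 of 10 were lower and 0 higher, and in WT c-KIT+ cells 7 of 10 were lower and 0 higher, beside the 16% and 15.9% of all genes called lower. The counts moved with scaling, to 6 lower in KO and 1 lower in WT with an equal total and 9 lower in each with median-ratio scaling, and the call of Cct5 held in each. The shares of all genes called under those scalings are not given here. Cct5 was at 229 and 253 FPKM in KO c-KIT+ cells, against 313 and 320 FPKM in KO SSCs, and at 226 and 236 FPKM in WT c-KIT+ cells, against 304 and 310 FPKM in WT SSCs. These groups did not overlap, though overlap with RA was not counted over all genes. The log2 differences were −0.39 for KO and −0.41 for WT (adjusted p = 0.000766 and 0.000626). Among 39 J proteins, 12 were higher and 2 lower in KO, and 10 higher and 3 lower in WT. Beside them, 24.6% of all genes in KO and 24.9% in WT were called higher. Dnajb5 differed by 0.70 for KO and 0.85 for WT. Hspa13, an HSP70 of microsomes, rose by 0.76 for KO and 0.70 for WT, and Clgn by 1.28 and 1.29. Of the HSP90 partners, 1 of 20 was higher and 5 lower in KO, and 3 higher and 6 lower in WT, with Rpap3 at −0.59 and −0.64. The germ cell factor Hsf5 fell by 0.75 for KO and by 0.44 for WT, a direction opposite to its difference in spermatocytes. Of the endoplasmic reticulum stress genes, 3 of 17 were higher and 4 lower in KO, and 3 higher and 2 lower in WT.

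Between genotypes few partners were called, and so were few of all genes. The shares of all genes were 2.11% higher and 2.79% lower in KO SSCs, and 1.11% higher and 1.59% lower in KO c-KIT+ cells. In KO spermatocytes 1.67% of all genes were called, so the low count is not particular to the partners. Clgn was lower in KO cells of both cultured states, at 2.90 and 2.77 FPKM in KO SSCs, against 5.38 and 6.74 FPKM in WT SSCs, and at 8.32 and 8.36 FPKM in KO c-KIT+ cells, against 16.5 and 15.9 FPKM in WT c-KIT+ cells. The groups did not overlap in either state (log2 differences −0.87 and −0.88, adjusted p = 0.000720 and 0.000873). In KO SSCs the HSP70-like Hspa12b (0.52) and the small heat shock gene Hspb6 (0.75) were also higher and Dnajc28 (−0.53) and Rpap3 (−0.26) lower, while in KO c-KIT+ cells Clgn was the only listed partner called. The heat shock factors themselves were not called, with Hsf1, the main factor of the heat shock response, at a log2 difference of −0.06 for SSCs and −0.01 for c-KIT+ cells (adjusted p = 0.551 and 0.933). In spermatocytes Hspb1 was higher, at 1.39 and 4.11 FPKM in KO, against 0.0627 and 1.60 FPKM in WT, with overlap between the ages (1.07, adjusted p = 0.0382). The J protein genes Dnajc5b (−1.03) and Dnajb8 (−0.80) were lower there (adjusted p = 0.0323 and 0.0484), in the same libraries in which the spermatid sum was lower and the Sertoli sum higher. With an equal total Hspb1 (adjusted p = 0.0542) and Dnajb8 (adjusted p = 0.0681) were no longer called, nor was Rpap3 in KO SSCs (adjusted p = 0.116).

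Finally, the genes with the pattern most like each member over the 12 libraries were listed by Pearson r of log2(FPKM + 1), as a description. For Hspa2 these were Pomt1 (r = 0.9998), Upf3a and Dhrs1, for Hspa4l Pabpc6, Spef2 and Spata1, and for Hspa1l Actrt2 (r = 0.996), Allc and Actl7a. For Hspa8 they were Sipa1l1, 2810417H13Rik and Wwp1, for Hsp90ab1 Huwe1, Dicer1 and Chd6, and for Hspa1b Mast4 and Rcn1. Gon4l, Asf1b and Zcchc3 were most like Hspa1a, Cd93, Heatr5b and Utp14b most like Hsph1, and Pycard, Ltbp2 and Rasl12 most like Hspa5. For Hsp90aa1, whose r with every other member lay between −0.33 and 0.19, the nearest were Kpna2 (r = 0.967), Ppia and Ccdc117. The points share libraries and fall into a cultured and a spermatocyte cluster, so a high r marks little more than the same side of that divide: 743 of 13247 genes had r over 0.99 with Hspa2 and 2565 with Hsp90ab1.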

How the data were processed

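The authors deposited FPKM per gene for each of 12 libraries, and their processing notes name TopHat2 2.0.6, Cufflinks 2.0.2, Cuffdiff and the mm9 build. The annotation is not given in the sources used here. The FPKM give no counts, so no counting intervals are given, and cultured and sorted libraries were compared as deposited, though whether they were normalised together is not given. Of 23021 entries per library, 728 entries of 259 repeated symbols were left out, which left 22293. Genes at 1 FPKM or more in at least 2 libraries of a fit were tested on log2(FPKM + 1) with limma 3.58.1 (R 4.3.3, moderated, with a variance trend, two-sided, Benjamini-Hochberg over all genes). The fits held the 8 cultured libraries (4 groups), the 4 spermatocyte libraries with age as a block, or all 12 with an age term. Calls used an adjusted p under 0.01, or under 0.05 for KO in spermatocytes, after the study's thresholds. The fit was tested on simulated data. Promoter windows and motif shares came from RefSeq. The text names all members, Zmym3, up to 4 called genes with the largest change per chaperone list, and for each member the 3 genes most like it, of which 1 is not reported here. The pseudocount, filter, scaling, threshold, variance trend, blocks and each library were varied. The members and lists were chosen with earlier results of these data known, and the Hspa1a and Hspa1b sum, the test of differing KO effects with its limit of 0.05, and LOC624853 were chosen after values were seen.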

Additional observations from a re-analysis of the deposited data

Results flagged for a closer look

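The log2 difference between KO and WT in spermatocytes was not the same as that in c-KIT+ cells for 2 of the members that passed the filter among cultured libraries. The difference of differences was −0.359 for Hspa8 (limma adjusted p = 0.0386) and −0.321 for Hsph1 (adjusted p = 0.0498). Against SSCs it did not pass, at −0.205 for Hspa8 (adjusted p = 0.178) and −0.231 for Hsph1 (adjusted p = 0.117). Of all genes, 8.25% differed against c-KIT+ cells and 11% against SSCs at a limma adjusted p under 0.05. The test and this limit were chosen after the values had been seen. Hspa1l stood at 0.631 times the WT mean in KO spermatocytes, while both KO c-KIT+ libraries, at 0.216 and 0.203 FPKM, were above both WT c-KIT+ libraries, at 0.178 and 0.128 FPKM. The cultured levels are below the filter, so the KO difference of Hspa1l in c-KIT+ cells was not tested by itself. In the fit of all 12 libraries its difference of differences was −0.587 against c-KIT+ cells and −0.597 against SSCs (limma adjusted p = 0.0185 and 0.0144). Hspa1l passed the filter of that fit through spermatocytes alone, so these values are not taken as support.

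For 6 members the 7-month and 5-month spermatocytes pointed in opposite directions between genotypes, with 1 library each, and the difference was not tested. The log2 values of KO minus WT at 7 months were −0.0324 for Hspa1a, 0.0440 for Hspa5, −0.159 for Hspa8, −0.163 for Hsph1, −0.0436 for Hsp90aa1 and −0.00129 for Hsp90ab1. At 5 months they were 0.114 for Hspa1a, −0.00532 for Hspa5, 0.0534 for Hspa8, 0.0466 for Hsph1, 0.0330 for Hsp90aa1 and 0.132 for Hsp90ab1.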

How the results depend on the processing

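The direction and call of Hspa2, Hspa1l, Hspa4l, Hspa1a, Hspa1b, Hspa8, Hsph1 and Hsp90ab1 between spermatocytes and SSCs held in every alternative that tested them, as did those of Hspa2 with RA. Wherever a filter was used, it set the direction of Hspa1l, Hspa1a and Hspa1b, so that their direction held there adds no support. Hspa1l did not pass a filter of 5 FPKM. The call of Hspa1b in KO cells did not hold in every alternative. Members called by KO in SSCs numbered 2 with rescaling to an equal total, 3 at an adjusted p under 0.05 and 2 when the compared groups were fitted alone, and 0 to 1 with 1 library left out. For KO in c-KIT+ cells they numbered 2 with an equal total, 3 with an equal total without small RNA genes, 3 with quantile normalization, 2 with median-ratio scaling, 4 at an adjusted p under 0.05, 0 when the compared groups were fitted alone, and 0 to 1 with 1 library left out. For KO in spermatocytes 1, Hspa1l, was called in the fit of all 12 libraries. That fit takes its spread from cultured libraries too, where Hspa1l was below the filter, so the call is not taken as support. For RA in KO cells 1 to 2 were called with 1 library left out. The causes of these shifts were not tested.

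Direction changed under median-ratio scaling between spermatocytes and SSCs for Hspa5 (0.72 for KO, 0.69 for WT) and Hsp90aa1 (1.06 for KO), and under quantile normalization for Hsp90aa1 (−0.50 for WT). The other changes of direction were of small, uncalled log2 differences. With median-ratio scaling, RA differences became −0.000951 for Hspa4l and −0.0137 for Hsp90ab1 in WT cells and −0.0182 for Hspa1a in KO cells. With quantile normalization, Hspa1a stood at −0.0278 (RA in KO cells) and Hsp90aa1 at 0.0124 (KO in spermatocytes). With an equal total, they were 0.0109 for Hspa1a and 0.0428 for Hspa8 (RA in WT cells), 0.0675 for Hspa4l and 0.0394 for Hspa5 (KO in SSCs), −0.0111 for Hspa2 and −0.0337 for Hsp90aa1 (interaction) and 0.0215 for Hsp90aa1 (KO in spermatocytes). Without small RNA genes in that total, they were 0.00451 for Hspa4l (KO in SSCs), 0.00446 for Hsp90ab1 (KO in c-KIT+ cells) and 0.0190 for Hsp90aa1 (KO in spermatocytes).

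With 1 library left out, Hsp90aa1 ranged over −0.0258 to 0.11 (KO in SSCs), −0.0427 to 0.23 (KO in c-KIT+ cells), −0.0436 to 0.0330 (KO in spermatocytes), −0.00450 to 0.27 (RA in WT cells), −0.0854 to 0.19 (interaction), −0.0814 to 0.0132 (KO spermatocytes against KO SSCs) and −0.0547 to 0.0823 (WT spermatocytes against WT SSCs). Hsp90ab1 ranged over −0.0434 to 0.0349 (KO in c-KIT+ cells) and −0.00129 to 0.13 (KO in spermatocytes), and Hspa1a over −0.0214 to 0.14 (RA in KO cells), −0.21 to 0.11 (RA in WT cells) and −0.0521 to 0.27 (interaction). Hspa2 ranged over −0.0247 to 0.0768 and Hspa4l over −0.0351 to 0.0284 (KO in SSCs), and Hspa4l over −0.00442 to 0.18 (RA in WT cells). Hspa5 ranged over −0.00532 to 0.0440 (KO in spermatocytes) and −0.11 to 0.00760 (interaction), Hspa8 over −0.16 to 0.0534 (KO in spermatocytes) and −0.0765 to 0.00417 (RA in WT cells), and Hsph1 over −0.16 to 0.0466 (KO in spermatocytes).

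With the replicate number as a block, the members called numbered 2 for RA in WT cells, 2 for RA in KO cells, 1 for KO in SSCs, 1 for KO in c-KIT+ cells and 0 for the interaction, as without it. Deviations of same-numbered libraries had an r over genes of 0.283 between KO SSCs and KO c-KIT+ cells, 0.169 between WT SSCs and WT c-KIT+ cells, and −0.07 to 0.09 over the other 4 pairs of groups. No label says what a number marks, so it was not taken as a pairing. The FPKM carry no counts, so depth limits the low genes by an unknown amount.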
